A study of Mus musculus with 16 samples.

Results

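The comparison described here is that of Mmp7-null with wild-type airway epithelium after scratch injury, over every gene on the array. It uses 8 of the 16 arrays of the series, 4 from Mmp7-null scratched cultures and 4 from wild-type scratched cultures. The arrays were chosen by their labels alone. Where a gene had several probe sets, the one that was brightest on average over the 16 arrays stood for it, which gave 18193 genes. The remaining 8 arrays, 4 per genotype, came from uninjured cultures and are used below to show whether a genotype difference was already there before the scratch.

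The cells were airway epithelium of C57BL/6 mice grown at an air-liquid interface, where the upper surface of the cells is exposed to air and the cells form mucociliary layers. One genotype was Mmp7-/-, called Mmp7-null below, and the other was wild-type. Scratched cultures received 3 parallel scratches with a pipette tip, and all cultures, scratched or not, were kept without serum for 24 hours ahead of RNA isolation. The labels give neither the time between scratch and harvest nor the number of mice, nor which cultures shared a mouse. The p-values below therefore measure the spread between cultures, which may be technical. The labels name no conditional allele, so the cultures differed in genotype before as well as after the injury.

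Mmp7 encodes matrilysin, a small secreted metalloproteinase made by mucosal and glandular epithelia. It is strongly induced in injured lung epithelium, where it sheds cell-surface proteins such as syndecan-1 and E-cadherin and so affects cell migration, repair and the release of neutrophil chemoattractants. The Mmp7 probe set cannot serve as a check of the genotype here. Its log2 intensity was 2.59, 2.19, 2.20 and 2.29 in the Mmp7-null and 2.15, 2.13, 2.25 and 2.15 in the wild-type scratched cultures. Control transcripts that were absent from an array gave values up to 2.97 (95th percentile), and all 16 arrays were below that level for Mmp7. This single probe set therefore says nothing about the presence of the transcript in either genotype.

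Levels below are log2 intensities, differences are Mmp7-null minus wild-type on the log2 scale with their standard error (SE), and a gene is called when its limma p is under 0.05 after Benjamini-Hochberg adjustment over the whole table. The defining markers were mostly those of airway epithelium. The epithelial adhesion genes Cdh1 and Epcam lay between 11.64 and 13.53, and the basal keratin Krt5 between 10.13 and 10.56. The club cell secretoglobin Scgb1a1 was between 7.95 and 8.73 and the ciliated cell factor Foxj1 between 8.24 and 9.78. The leukocyte gene Ptprc and the endothelial gene Pecam1 stayed below 2.97 on all 8 arrays, as did the goblet cell mucin Muc5ac, whereas the fibroblast collagen Col1a1 reached 3.01 on 1 array and was below 2.97 on the other 7. The smooth muscle actin Acta2 (7.02 to 8.93) and the secreted mucin Muc5b (7.63 to 10.07) were above background on all 8 arrays. Alveolar genes were also measured well above background, among them Ager and Sftpc, described below.

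Bacterial control transcripts divided the arrays into 3 sets that run with genotype. Lys was present on Mmp7-null scratched replicates 1 and 4, Phe on Mmp7-null replicates 2 and 3 and wild-type replicate 1, and Trpn on wild-type replicates 2, 3 and 4. What the sets stand for is not given. Genotypes can be compared within a set only on the 3 Phe arrays. Each main gene is therefore also given with the control set as a block. In the text this fit is called "the block", and it rests on the Phe arrays of both states. On the map of the 8 arrays the genotypes lay apart along the first component, with 36.3% of the variance. The second (21.8%) set apart wild-type replicate 3 and Mmp7-null replicate 1, which had the lowest upper quartiles of intensity, 115.0 and 119.1 against 126.5 to 133.2 on the other 6. Wild-type replicate 4 had the widest gap between the 3′ and 5′ ends of the actin control, 2.62 against 1.53 to 1.83. Counts are also given without these 3 arrays.

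**Figure D1:**
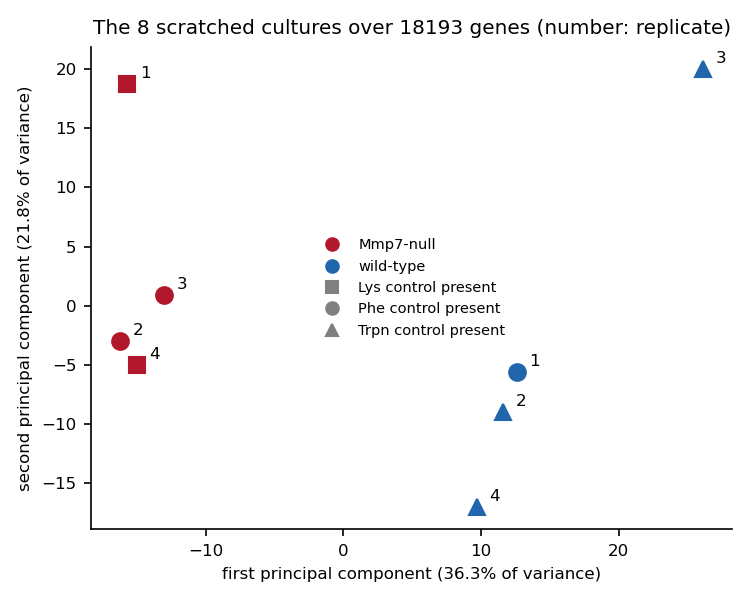
Map of the 8 scratched cultures from a principal component analysis of log2 intensities over 18193 genes. Each point is 1 array, coloured by genotype, numbered by replicate and shaped by the bacterial control present. The first component (36.3% of the variance) separates the genotypes, and Mmp7-null replicate 1 and wild-type replicate 3 lie apart on the second (21.8%).

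Scratched Mmp7-null cultures had more transcript of multiciliated cell genes, and less of alveolar type 1 genes, of several ion transport genes and of the chemokine Cxcl1, than scratched wild-type cultures. In all 1130 of the 18193 genes were called (6.21%), 599 of them higher (3.29%) and 531 lower (2.92%) in Mmp7-null cultures. The median difference over all genes was -0.04, and 32% of all genes had a difference above 0. Of the called genes 97 differed by at least 2-fold, 69 higher and 28 lower. The split between higher and lower depends on scaling: with each array centred on its median, 623 genes were called higher and 879 lower. Without the 3 arrays above 787 genes were called, of which 504 were higher and 283 lower. Leaving out Mmp7-null replicate 1 alone gave 606 higher and 319 lower. With the block 252 genes were called, 153 higher and 99 lower. Of the 1130 calls 210 were kept with the block, and all 1130 had the same sign in it. Within the 3 Phe arrays, which are also part of the main fit, 99.7% of the 1130 had the same sign.

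Complete separation of the groups was common here, and 5951 genes (32.7%) had no overlap between the 4 arrays of each genotype. Of these, 4057 were among the 6538 genes at background and had lower values in all Mmp7-null cultures, where the median difference was -0.04. Among the 11655 genes above background 1888 (16.2%) did not overlap, 756 higher and 1132 lower.

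**Figure D2:**
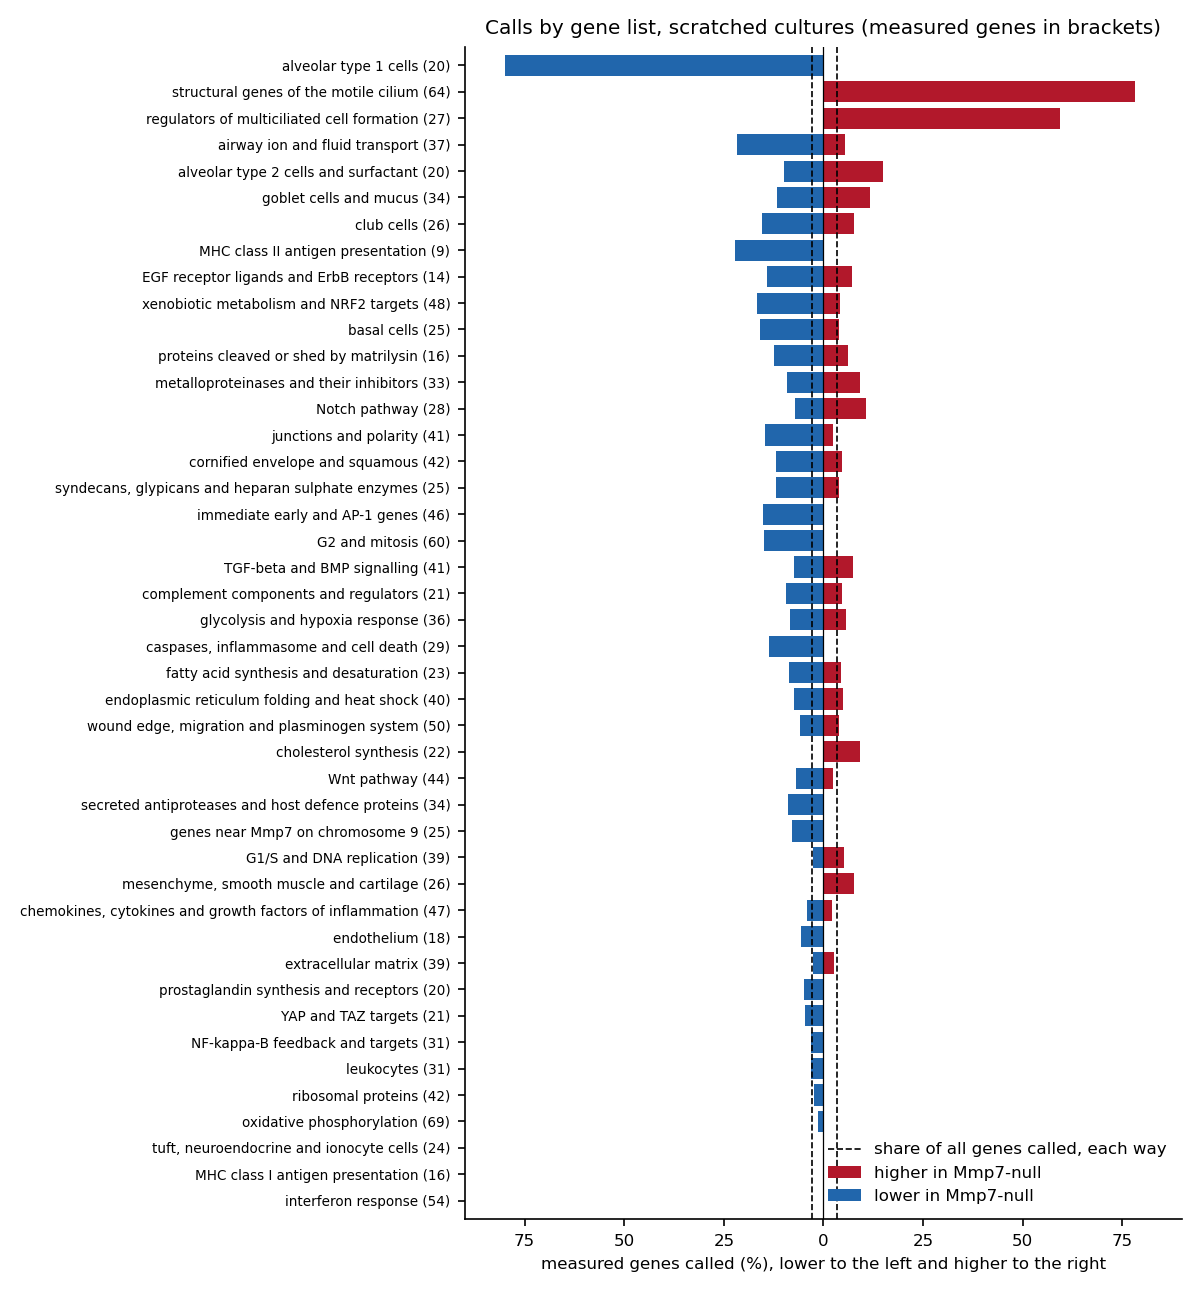
Share of the measured genes of each of 44 lists that was called higher (to the right, red) or lower (to the left, blue) in Mmp7-null than in wild-type scratched cultures, with the number of measured genes in brackets. Dashed lines mark the shares over all genes, 3.29% higher and 2.92% lower. The lists for the alveolar type 1 cell and for the motile cilium stand far outside these lines, and those for the interferon response and class I antigen presentation hold no call.

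Genes of motile cilia were the main group that was higher. Multiciliated cells carry many motile cilia, whose axoneme is moved by dynein arms and held together by radial spokes and nexin links. Their formation needs many centrioles at once and a transcription programme that runs through Myb, Foxj1 and the RFX factors. Of 64 measured structural genes of the cilium, 50 were called higher and none lower (78.1% beside 6.21% of all genes). Of the 64 values 63 were above 0, beside 32% of all genes, with a median difference of 0.76. Of 27 regulators of multiciliated cell formation, 16 were higher and none lower (59.3%, median 0.51). Both lists were chosen with earlier results of these data known. In bulk cultures, more multiciliated cells and more RNA of these genes per cell cannot be told apart.

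Of the 27 regulators 17 had no overlap between the groups, beside 32.7% of all genes. Foxj1, Myb and Deup1 were among the 17. Foxj1, the forkhead factor that switches on the genes of motile cilia, read 9.59, 9.78, 9.54 and 9.60 in the Mmp7-null and 8.24, 8.73, 8.80 and 9.0 in the wild-type cultures, a difference of 0.93 (SE 0.12, adjusted p = 5e-04). Myb, which acts early in multiciliated cell formation, read 10.82, 10.73, 10.78 and 10.76 against 9.85, 9.66, 9.67 and 9.64, a difference of 1.07 (SE 0.06, adjusted p = 5.7e-07). Deup1, which builds the deuterosome on which new centrioles form, read 9.49, 9.43, 9.47 and 9.52 against 8.51, 8.33, 8.24 and 8.63 (difference 1.05, SE 0.08, adjusted p = 9.8e-06). For these genes every Mmp7-null array was above every wild-type array. All 3 were called with the block, where the differences were 1.14 for Foxj1 (adjusted p = 0.0081), 0.93 for Myb (adjusted p = 8.2e-05) and 0.98 for Deup1 (adjusted p = 0.0036).

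Other genes of centriole production went the same way. Cep152, a scaffold for new centrioles, differed by 1.09 (adjusted p = 0.00035) and the centriole kinase Plk4 by 0.83 (adjusted p = 0.00035). Ccno, a cyclin-like gene needed for centriole amplification, differed by 0.72 (adjusted p = 0.001). The transcription factor Rfx2 differed by 1.05 (adjusted p = 0.002), with 1.06 (adjusted p = 0.068) with the block, where it was not called. Stk36, a kinase of the central pair apparatus, differed by 0.98 (adjusted p = 0.00047) and Pifo, a gene of the ciliary base, by 0.98 (adjusted p = 0.00028).

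Structural genes were higher across the parts of the axoneme. By gene name, 5 of 8 dynein heavy chains (Dnah) were higher with a median of 0.81, as were 3 of 4 radial spoke genes (Rsph, 0.79) and 11 of 12 cilia and flagella associated genes (Cfap, 0.78). So were 8 of 9 coiled-coil and nexin link genes (Ccdc, Drc and Gas8, 0.65), all 3 dynein assembly factors (Dnaaf1, Lrrc6 and Zmynd10, 0.80) and all 3 intraflagellar transport genes (Ift, 0.51). The 2 tubulin genes, which other cells also use, had a median of 0.23, and 1 of them was called. These groups by name were formed after the values had been seen, as was the choice to name Lrrc23, Plk4, Ccno, Rsph4a, Col4a3, Hopx, Pdpn, Sftpb, Sftpd, Cmpk2, Cfap300 and the genes whose genotype difference changed with the scratch.

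Lrrc23, a radial spoke gene, read 11.13, 11.06, 10.84 and 11.08 in Mmp7-null and 10.04, 9.87, 9.96 and 10.23 in wild-type cultures, a difference of 1.01 (SE 0.09, adjusted p = 3.6e-05). Lrrc34 read 9.85, 10.01, 9.80 and 10 against 8.96, 8.95, 8.54 and 8.79, a difference of 1.11 (SE 0.12, adjusted p = 0.00017). Neither gene's groups overlapped, and both were called with the block, at 0.93 (adjusted p = 0.0064) and 1.02 (adjusted p = 0.019). The inner arm dynein Dnah1 had the largest difference of the list, 1.51 (SE 0.30, adjusted p = 0.0088), from 6.40, 6.15, 5.95 and 5.86 against 5.01, 4.61, 3.51 and 5.19. Its wild-type arrays were the most spread of the cilium genes named here, with replicate 3 lowest, and with the block it was at 1.24 (adjusted p = 0.25). Cfap221, of the central apparatus, differed by 1.36 (adjusted p = 0.0048) and by 1.17 (adjusted p = 0.17) with the block. Dnaic1, an outer arm intermediate chain, differed by 1.11, Cfap69 by 1.05, Dnah2 by 1.03 and the spoke head gene Rsph4a by 0.99, all called with the block too.

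The cilium counts held where arrays were left out. Without the 3 arrays set apart above, 45 of the 64 structural genes and 15 of the 27 regulators were higher. With the block fewer calls were kept, 26 of the 50 and 10 of the 16. All 66 had the same sign, but so did all 1130 calls, so the sign is not particular to cilium genes. Before the scratch the lists already had medians of 0.59 and 0.39, with 37 and 11 genes higher, and in limma no gene of either list was called for the difference between the states (10 and 6 had an unadjusted p under 0.05). The summed linear intensity of the structural list was 57859 to 64665 on the Mmp7-null and 42576 to 48380 on the wild-type scratched arrays.

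RFX factors bind the X-box, a promoter motif common in ciliary genes, and Rfx2 was among the genes that were higher. The stretches of promoter around its core letters are therefore shown for 5 of the cilium genes, read 5′ to 3′ on the gene's strand from RefSeq (GRCm38.p6). Capitals mark GTTGCC or its reverse complement GGCAAC. All 5 genes lie on the minus strand, and the windows are chr3:30647823-30647908 (Lrrc34), chr17:56831079-56831164 (Rfx2), chr9:15627880-15627965 (Deup1), chr6:124779728-124779806 (Lrrc23) and chr3:106001498-106001549 (Pifo).
Lrrc34: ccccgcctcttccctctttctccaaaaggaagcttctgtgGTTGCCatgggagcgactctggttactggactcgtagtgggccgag
Rfx2: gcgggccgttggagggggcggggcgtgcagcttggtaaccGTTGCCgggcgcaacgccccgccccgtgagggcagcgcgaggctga
Deup1: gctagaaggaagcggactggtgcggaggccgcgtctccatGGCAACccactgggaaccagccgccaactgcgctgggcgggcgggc
Lrrc23: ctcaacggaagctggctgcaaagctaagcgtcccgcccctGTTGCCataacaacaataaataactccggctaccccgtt
Pifo: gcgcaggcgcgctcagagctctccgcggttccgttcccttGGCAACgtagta

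The windows shown lie between 1 and 156 bases before the annotated start. GTTGCC was searched on both strands in the 250 bases before each annotated start. A gene was counted once if any of its starts had a match, and genes without a promoter sequence were left out. A match was present for 16 of 55 cilium genes called higher (29.1%) and 6 of 23 not called (26.1%). Over all tested genes it was present for 1769 of 14367 (12.3%). The share was 24.2% of all genes called higher and 11.7% of those called lower. The forkhead letters TGTTTAC, searched the same way and never a match of the first motif, were in 3 of 55 (5.45%) against 3.02% over all genes. A match is a run of letters and not a binding site.

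**Figure D3:**
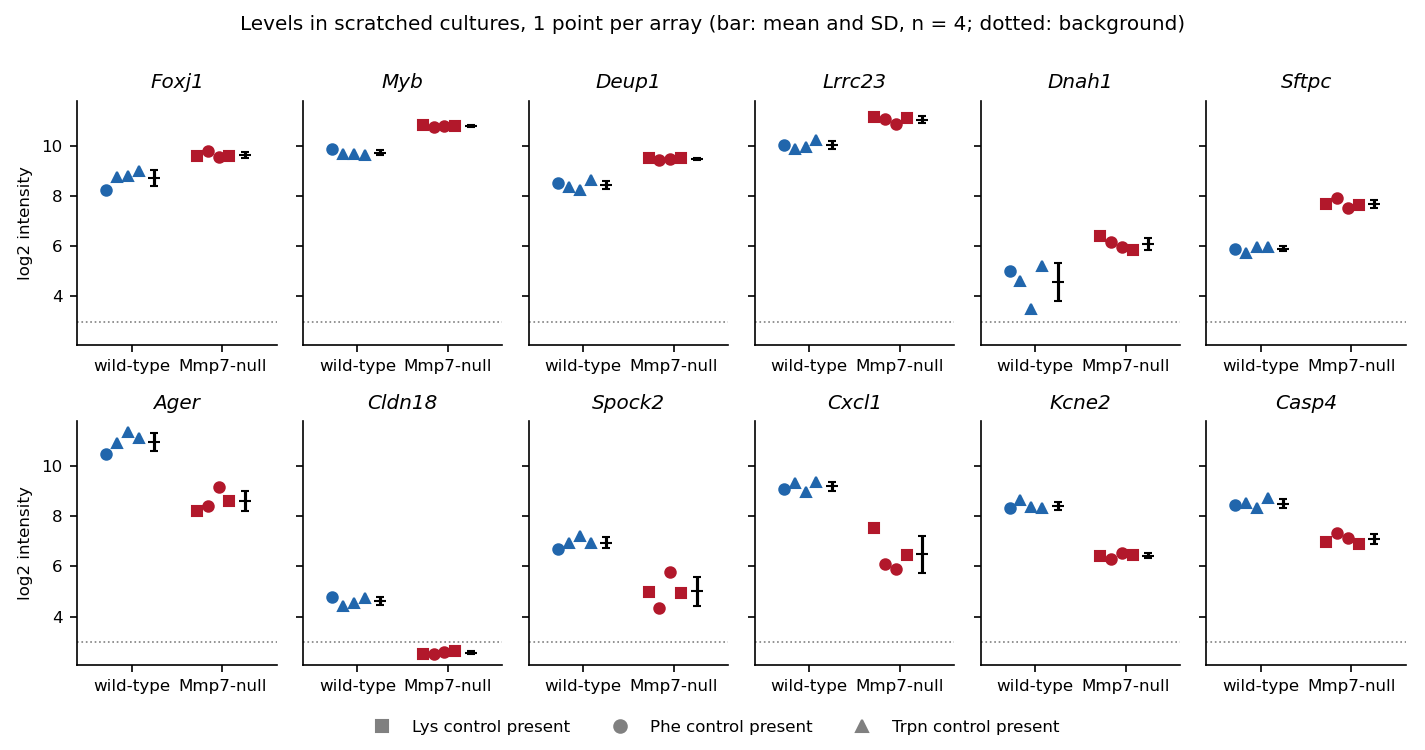
Log2 intensity of 12 genes on each scratched array, with wild-type cultures in blue and Mmp7-null cultures in red, and the shape of a point giving the bacterial control present on that array. Bars are the mean and SD of 4 arrays and the dotted line is the background level of 2.97. No gene shown has overlapping groups, and Cldn18 lies below background on all 4 Mmp7-null arrays.

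Genes of the alveolar type 1 cell were the main group that was lower. These flat cells form most of the gas exchange surface, and several of their genes are also used by airway epithelium in culture. Of 20 measured genes of the list, 16 were lower and none higher (80% beside 6.21% of all genes). All 20 were below 0, where 32% of all genes were above 0, and the median was -0.65. The list was chosen with earlier results of these data known, so its count is no independent test. Without the 3 arrays set apart above 16 were lower, and with the block 11 of the 16 calls were kept. The uninjured cultures had 11 lower and a median of -0.46, so the group was low before the scratch as well. Of these genes 3 are also on the basal cell list, 2 on the ion transport list, 1 on the junction list and 1 on the hypoxia list.

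Ager, the receptor for advanced glycation end products, read 8.21, 8.41, 9.17 and 8.61 in Mmp7-null and 10.48, 10.89, 11.33 and 11.10 in wild-type cultures, a difference of -2.35 (SE 0.21, adjusted p = 6e-05). The tight junction gene Cldn18 read 2.53, 2.52, 2.59 and 2.62 against 4.77, 4.43, 4.52 and 4.75. All 4 Mmp7-null arrays were thus at background, and Cldn18 was at least 3.13-fold lower there than in wild-type cultures (adjusted p = 9.8e-06). Spock2, a matrix proteoglycan, read 4.96, 4.34, 5.77 and 4.95 against 6.68, 6.94, 7.21 and 6.91, a difference of -1.93 (SE 0.25, adjusted p = 0.00048). Igfbp2, which binds insulin-like growth factors, read 7.44, 7.68, 8.33 and 7.84 against 9.62, 9.65, 10.10 and 9.30 (difference -1.85, SE 0.21, adjusted p = 0.00022). The groups of these genes did not overlap, and Mmp7-null replicate 3 was the highest of its group for Ager, Spock2 and Igfbp2. With the block the differences were -2.04, -2.27, -1.87 and -1.80, all called (largest adjusted p = 0.039).

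Smaller differences in the same list were those of the anchoring protein Akap5 (-1.28, adjusted p = 0.00022), the chloride channel family gene Clic5 (-1.11, adjusted p = 8e-04) and the basement membrane chain Col4a3 (-0.81, adjusted p = 0.0024). The homeobox gene Hopx differed by -0.66 (adjusted p = 0.00048), the caveolar gene Cav1 by -0.63 (adjusted p = 0.00095) and the vascular growth factor Vegfa by -0.51 (adjusted p = 0.012). All these were called with the block. Dimmer probe sets above background gave -0.80 and -1.07 for Akap5, -1.30 and -0.59 for Clic5 and -0.18 for Vegfa. Pdpn, a defining marker of the type 1 cell that basal cells also express, was at 11.30 to 11.64 in Mmp7-null and 11.40 to 11.78 in wild-type cultures. Its difference was -0.12 (adjusted p = 0.44), and its groups overlapped.

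Genes of the alveolar type 2 cell, which makes surfactant, were called in both directions. Of 20 measured genes 3 were higher and 2 lower (25% beside 6.21% of all genes). There were 3 calls left without Mmp7-null replicate 2 or 4 or wild-type replicate 1 or 3. The summed linear intensities of the list overlapped between the genotypes, at 57267 to 63706 in Mmp7-null and 57323 to 67359 in wild-type cultures. Sftpc, surfactant protein C, was among the largest differences of all genes. It read 7.68, 7.90, 7.53 and 7.64 in Mmp7-null and 5.89, 5.74, 5.96 and 5.96 in wild-type cultures, a difference of 1.80 (SE 0.15, adjusted p = 3.6e-05), and 1.78 (adjusted p = 0.0064) with the block. Its other probe set lay near background and gave -0.18. The surfactant proteins B and D overlapped between the genotypes, with Sftpb near background (3.45 to 3.95) and Sftpd among the brightest genes of the array (14.06 to 14.35). Abca3, the lipid transporter of surfactant granules, differed by -0.43 (adjusted p = 0.012; with the block -0.31, adjusted p = 0.1; its other probe set above background gave -0.18), and the fatty acid receptor Cd36 by -0.82 (adjusted p = 0.00036).

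Several genes of airway ion and fluid transport were lower. Of 37 measured genes 8 were lower and 2 higher (27% beside 6.21% of all genes), with a median of -0.12. With the block 2 of the 10 calls were kept, and without the 3 arrays set apart above 7 were lower and 1 higher. The potassium channel subunit Kcne2 read 6.39, 6.30, 6.53 and 6.46 in Mmp7-null and 8.31, 8.64, 8.37 and 8.32 in wild-type cultures, a difference of -1.99 (SE 0.27, adjusted p = 0.00069). All 4 Mmp7-null arrays were far below all 4 wild-type arrays, and within the 3 Phe arrays the difference was -1.90, but the block gave -1.65 (adjusted p = 0.064). In uninjured cultures Kcne2 differed by -0.20 (adjusted p = 0.98), and the difference between the states, -1.79, did not pass (adjusted p = 0.11).

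The epithelial sodium channel takes up sodium and with it water from the airway surface. Its beta subunit Scnn1b read 4.72, 4.84, 5.15 and 4.46 against 5.51, 6.04, 6.15 and 6.23, a difference of -1.19 (SE 0.20, adjusted p = 0.0023). The gamma subunit Scnn1g differed by -0.78 (adjusted p = 0.0044), with Mmp7-null replicate 1 the lowest at 7.57. Neither was called with the block, at -0.85 (adjusted p = 0.1) and -0.58 (adjusted p = 0.17). Prss8, prostasin, a membrane protease that activates this channel, read 8.20, 8.32, 8.25 and 8.10 against 8.72, 9.0, 8.96 and 9.12, a difference of -0.73 (SE 0.08, adjusted p = 0.00016), and -0.61 (adjusted p = 0.02) with the block. The water channel Aqp5 differed by -0.41 (adjusted p = 0.0032; with the block -0.26, adjusted p = 0.17). In the other direction, the chloride-loading cotransporter Slc12a2 was higher by 0.54 (adjusted p = 0.00071; with the block 0.48, adjusted p = 0.058; its 2 dimmer probe sets gave 0.34 and 0.78).

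Among inflammatory genes the neutrophil chemokine Cxcl1 differed most. Cxcl1, which draws neutrophils through CXCR2, had the largest lower value of all genes. It read 7.52, 6.08, 5.88 and 6.44 in Mmp7-null and 9.08, 9.32, 8.96 and 9.35 in wild-type cultures, a difference of -2.70 (SE 0.29, adjusted p = 0.00018). Mmp7-null replicate 1 was more than 1 above the other Mmp7-null arrays, and still below every wild-type array. With the block the difference was -2.75 (adjusted p = 0.018), and in uninjured cultures it was -2.60 (adjusted p = 0.00044). Of 47 chemokines and cytokines 2 were lower and 1 higher, a share of 6.38% that is close to that of all genes, with a median of -0.03; 1 call was left without Mmp7-null replicate 2 or 4.

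Host defence and antigen presentation held a few lower genes. The complement factor Cfb differed by -0.95 (SE 0.19, adjusted p = 0.0088), and with the block by -0.68 (adjusted p = 0.3). Slpi, the secretory leukocyte protease inhibitor, read 9.69, 9.51, 9.40 and 9.65 against 10.34, 10.33, 10.54 and 10.60, a difference of -0.89 (SE 0.08, adjusted p = 3.6e-05) that the block left at -0.90 (adjusted p = 0.00079). Of 34 secreted antiproteases and defence proteins 3 were lower and none higher (8.82% beside 6.21% of all genes). The balance was not stable: 2 were higher and 1 lower without the 3 arrays set apart above and without Mmp7-null replicate 1 alone, 1 was higher and 2 lower without wild-type replicate 2, 1 was higher and 1 lower without wild-type replicate 4, and 1 call was left without Mmp7-null replicate 3 or 4 or wild-type replicate 1. Of 9 class II antigen presentation genes 2 were lower (22.2%). The class II chain H2-Ab1 read 3.02, 3.28, 2.92 and 3.03 against 3.87, 4.14, 4.19 and 4.33, with 1 Mmp7-null array at background and the others just above it, a difference of -1.07 (adjusted p = 0.002). The invariant chain Cd74 differed by -0.84 (adjusted p = 0.021), a call lost on leaving out Mmp7-null replicate 2 or 4 or wild-type replicate 2 or 4 (adjusted p up to 0.058). Neither was called with the block, at -0.60 (adjusted p = 0.092) and -0.54 (adjusted p = 0.43).

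The interferon response list held no call in limma among 54 genes, of which 8 had an unadjusted p under 0.05. Of all 18193 genes 4062 had an unadjusted p under 0.05 in this limma comparison. Of the 54 values 43 were above 0, beside 32% of all genes, and the median was 0.22. The values ran from -0.36 to 0.81, the highest being Cmpk2 (adjusted p = 0.1). Without the 3 arrays set apart above, the median was 0.45 and again no gene passed, whereas 1 did when wild-type replicate 4 alone was left out. In uninjured cultures the median was -0.28, on the other side of 0, and no gene of the list was called for the difference between the states (5 had an unadjusted p under 0.05). None of the 16 class I antigen presentation genes was called in limma (2 had an unadjusted p under 0.05), and their median was -0.04, with 0.06 with the block and 0.004 without the 3 arrays, so that its sign was not stable.

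**Figure D4:**
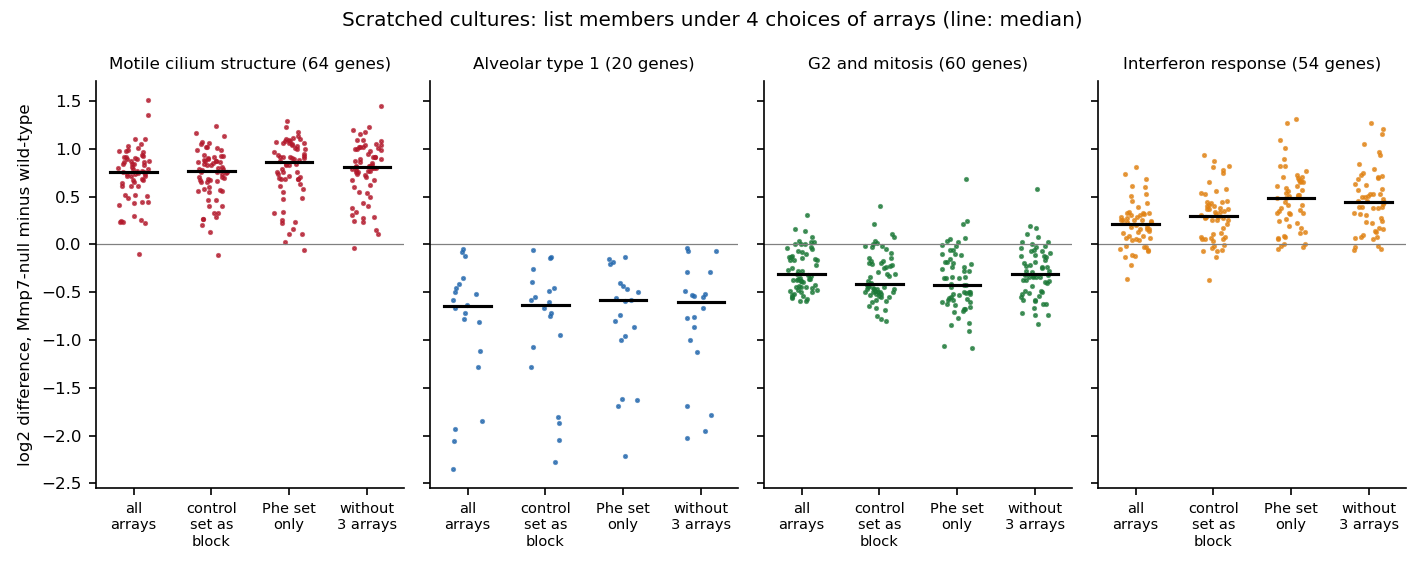
Log2 difference, Mmp7-null minus wild-type, of each member of 4 gene lists in scratched cultures from 4 fits: all arrays, the bacterial control set as a block, the 3 Phe arrays (2 Mmp7-null against 1 wild-type), and without the 3 arrays set apart above. Each point is 1 gene and the line is the median. Medians of the cilium list lie between 0.76 and 0.86, those of the alveolar type 1 list between -0.65 and -0.59, and those of the interferon list between 0.22 and 0.49.

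Among genes that are switched on early after growth factor signals, and those that restrain such signals, the calls were mostly lower. Of 46 immediate early and AP-1 genes 7 were lower and none higher (15.2% beside 6.21% of all genes), with a median of -0.10. There were 5 lower without the 3 arrays set apart above, and 4 without Mmp7-null replicate 1 alone. None of the 7 was called with the block. Id3, an inhibitor of differentiation factors induced by BMP signals, read 4.61, 5.39, 5.41 and 5.57 against 6.62, 6.70, 6.63 and 6.56, a difference of -1.38 (SE 0.19, adjusted p = 0.00078; with the block -1.18, adjusted p = 0.052). Id1 differed by -0.52 (adjusted p = 0.018; with the block -0.32, adjusted p = 0.4) and lost its call without Mmp7-null replicate 1 or wild-type replicate 2 (adjusted p up to 0.055). The Fos and Jun family genes themselves were not among the calls.

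Spry2, an inhibitor of receptor kinase signalling, differed by -0.85 (adjusted p = 0.0071; with the block -0.98, adjusted p = 0.076). The MAP kinase phosphatase Dusp1 read 10.86, 10.99, 11.35 and 11.04 against 11.88, 11.85, 11.66 and 11.41, a difference of -0.64 (SE 0.11, adjusted p = 0.0043; with the block -0.57, adjusted p = 0.12). Errfi1, a feedback inhibitor of the EGF receptor, differed by -0.62 (adjusted p = 0.0012) and was called with the block at -0.63 (adjusted p = 0.049). Of 14 EGF receptor ligands and ErbB receptors 2 were lower and 1 higher (21.4% beside 6.21% of all genes). These were Errfi1, the receptor Erbb3 (-0.36, adjusted p = 0.0038) and Lrig1, a negative regulator of the receptors (0.43, adjusted p = 0.0033). With the block Erbb3 was at -0.31 (adjusted p = 0.12) and Lrig1 at 0.47 (adjusted p = 0.063).

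Genes of G2 and mitosis were on opposite sides of 0 before and after the scratch. In scratched cultures 9 of 60 were lower and none higher (15% beside 6.21% of all genes), with 50 below 0 and a median of -0.31. Of all genes 32% were above 0 in that comparison. In uninjured cultures, where 872 of all genes were called (4.79%), 11 of the 60 were higher and none lower, with a median of 0.26. The test of the difference between the states called 24 genes in all (0.132%), and 4 of them, Cdca3, Kif2c, Cep55 and Cks2, belong to this list. All 4 had a more negative genotype difference after the scratch. The count in scratched cultures was not stable: it was 25 lower after median centring of the arrays, and 7 without the 3 arrays set apart above. Leaving out 1 array gave 3 without Mmp7-null replicate 1 or wild-type replicate 1, 5 without replicate 2 of either genotype and 12 without wild-type replicate 3. With the block 1 of the 9 was kept, and the median was -0.41.

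Ube2c, the ubiquitin-conjugating enzyme of the anaphase complex, read 8.93, 9.20, 9.36 and 9.23 against 9.90, 9.81, 9.89 and 9.48, a difference of -0.59 (SE 0.13, adjusted p = 0.014; with the block -0.58, adjusted p = 0.11). The trigger of mitotic entry Cdca3 read 7.26, 7.22, 7.56 and 7.50 against 7.97, 7.85, 8.0 and 7.84, a difference of -0.53 (SE 0.11, adjusted p = 0.008; with the block -0.54, adjusted p = 0.11). Cyclin B2, Ccnb2, differed by -0.49 (adjusted p = 0.031) and kept its call without wild-type replicate 3 or Mmp7-null replicate 4, but lost it without any 1 of the other 6 arrays (adjusted p up to 0.084). Its value with the block was -0.50 (adjusted p = 0.19). Of 39 genes of G1/S and DNA replication 2 were higher and 1 lower (7.69% beside 6.21% of all genes). Their median was 0.16, on the other side of 0 from the mitotic list. It was 0.068 with the block and 0.082 without the 3 arrays set apart above. None of the 3 calls was kept with the block. The G1/S calls numbered 5 without Mmp7-null replicate 1 and 1 without Mmp7-null replicate 2 or 3.

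**Figure D5:**
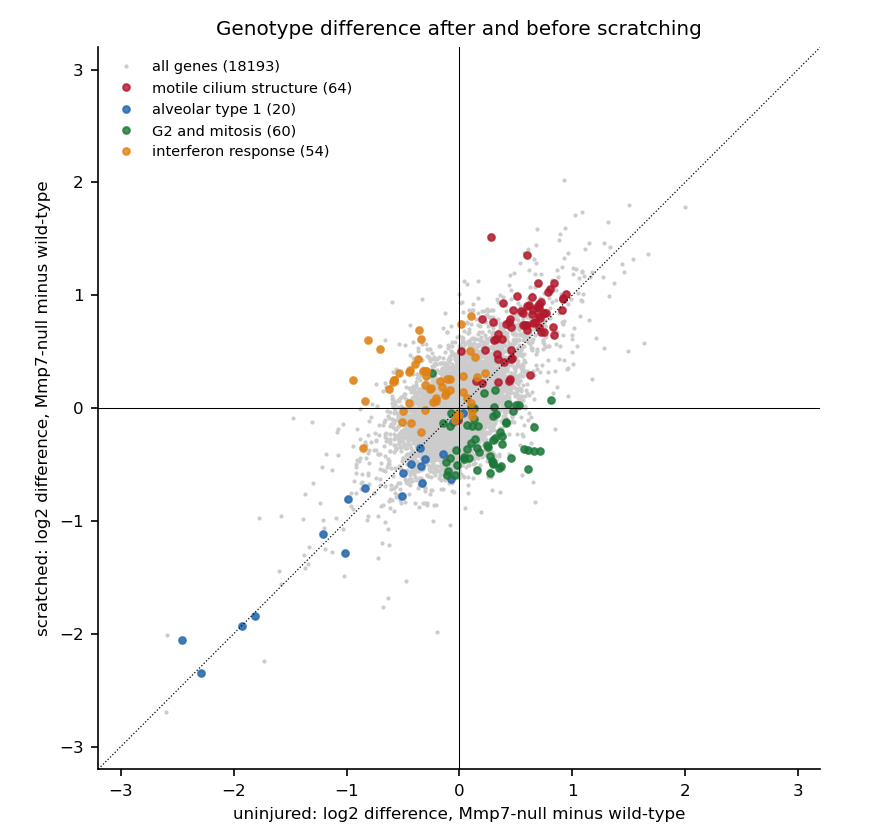
Log2 difference, Mmp7-null minus wild-type, after scratching (vertical axis) against the same difference in uninjured cultures (horizontal axis) for 18193 genes, with 4 lists in colour and a dotted line of equal values. Cilium genes lie high on both axes and alveolar type 1 genes low on both, whereas mitotic genes have medians of 0.26 before and -0.31 after scratching.

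Most genes called after the scratch had the same direction before it. Of the 1130 genes called in scratched cultures 90.4% had the same sign in uninjured cultures. Both comparisons called 423 genes, 37.4% of the scratched and 48.5% of the uninjured calls, and 415 of them had the same direction. The comparisons share no array, but the control sets run with genotype in both. The genotype difference itself changed with the scratch for 24 genes. Over all genes 1417 had an unadjusted p under 0.05 for this difference. Each control set holds as many scratched as uninjured cultures of a genotype, and 18 genes were called with the block. Leaving out 1 array gave 8 genes without Mmp7-null scratched replicate 3, and 12 without Mmp7-null uninjured replicate 3, wild-type uninjured replicate 1 or wild-type scratched replicate 2. It gave 14 without wild-type scratched replicate 1, 15 without Mmp7-null scratched replicate 4 and 28 at most.

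Of the 24 genes, 19 had a lower and 5 a higher genotype difference after the scratch than before it. By list, 4 of the 24 belong to mitosis (60 measured genes) and 2 to ion transport (37). Goblet cells (34), host defence (34), sterol synthesis (22) and leukocytes (31) have 1 each. The share over all genes was 0.132%. Slpi differed by 0.05 before the scratch (adjusted p = 0.98) and was lower in Mmp7-null cultures after it, a change of -0.94 (SE 0.11, adjusted p = 0.0061). Agr2, the disulfide isomerase of mucus cells, read 11.05, 10.72, 10.76 and 11.26 against 11.68, 11.66, 11.73 and 11.70 after the scratch, a difference of -0.74 (adjusted p = 0.0045) against 0.36 before it, and changed by -1.1 (SE 0.19, adjusted p = 0.043). Prss8 was at -0.06 before the scratch and changed by -0.67 (adjusted p = 0.037). Cd68, a lysosomal protein best known from macrophages, read 6.26, 6.94, 6.79 and 6.87 against 7.83, 7.59, 7.59 and 7.54, a difference of -0.92 (adjusted p = 0.0012) against 0.19 before. It was the 1 gene called of 31 leukocyte genes (3.23% beside 6.21% of all genes), whose defining marker Ptprc was at background. With the block Agr2 was at -0.69 (adjusted p = 0.13) and Cd68 at -0.82 (adjusted p = 0.065) in scratched cultures.

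The arrestin-like gene Arrdc3 went from 0.35 before to -0.43 after the scratch (change -0.78, adjusted p = 0.008) and Avpi1 from 0.29 to -0.39 (change -0.68, adjusted p = 0.0061). The fatty acid carrier Fabp5 went from 0.33 to -0.46, and the inositol transporter Slc5a3 from -0.04 to -0.75. In the other direction the sterol regulator Srebf2 went from -0.32 to 0.35 (change 0.67, adjusted p = 0.037), although its other bright probe set gave -0.04 in scratched cultures. The Mediator subunit Med24 went from -0.48 to 0.56 (change 1.04, adjusted p = 0.019). In scratched cultures Fabp5, Slc5a3, Med24 and Arrdc3 had adjusted p of 0.032, 0.019, 0.042 and 0.05 with the block, Avpi1 had 0.064 and Srebf2 0.2.

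Genes of matrix and wound edge held few calls, some of them large. Of 39 matrix genes 1 was higher and 1 lower, and of 50 genes of the wound edge and plasminogen system 2 were higher and 3 lower, beside 6.21% called over all genes. The 5 wound edge calls were 3 without Mmp7-null replicate 2, 3 or 4. Without Mmp7-null replicate 1 they were 5 higher and 2 lower, and without the 3 arrays set apart above 5 higher and 1 lower, where the matrix list had 2 higher and 3 lower. Tnc, tenascin-C, a matrix glycoprotein of wounds and a substrate of matrilysin, read 7.08, 6.62, 7.23 and 7.25 in Mmp7-null and 5.29, 5.32, 5.50 and 4.94 in wild-type cultures, a difference of 1.78 (SE 0.23, adjusted p = 0.00054). The intermediate filament gene Vim read 7.45, 6.36, 6.94 and 6.60 against 4.40, 5.19, 5.35 and 5.56, a difference of 1.71 (SE 0.30, adjusted p = 0.0037). Timp1, an inhibitor of metalloproteinases, read 5.83, 4.96, 5.93 and 5.26 against 3.94, 4.43, 4.25 and 4.09, a difference of 1.32 (SE 0.20, adjusted p = 0.0015). The groups of these 3 genes did not overlap, and all 3 were called with the block (Tnc 1.65, Vim 2.05, Timp1 1.46; largest adjusted p = 0.042). A dim probe set of Tnc, near background, gave 0.13.

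Of the markers of mesenchymal cells, Acta2 was called in the direction of Vim. The smooth muscle actin Acta2 read 8.70, 7.90, 8.93 and 7.96 against 7.06, 7.15, 7.85 and 7.02, a difference of 1.1 (adjusted p = 0.023; with the block 1.1, adjusted p = 0.24), and it lost its call on leaving out Mmp7-null replicate 1 or 3 or wild-type replicate 1, 2 or 4 (adjusted p up to 0.065). Vim and Acta2 were the 2 genes called of 26 for mesenchyme, smooth muscle and cartilage (7.69% beside 6.21% of all genes). Of the 26 values 9 were above and 17 below 0, where 32% of all genes were above 0, with a median of -0.03. Their summed linear intensity was 736 to 1032 in Mmp7-null and 510 to 707 in wild-type cultures. The defining fibroblast marker Col1a1 stayed near background in both genotypes, and 18 of the 26 genes had a mean at background. The part of such cells in the values of Vim and Timp1 was not tested. Sparc, a matrix protein that is also made by epithelium, went the other way, at -0.83 (adjusted p = 0.0034; with the block -0.80, adjusted p = 0.1).

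Among metalloproteinases and their inhibitors 3 of 33 genes were higher and 3 lower (18.2% beside 6.21% of all genes). Apart from Timp1 and Mmp23 the called genes differed by less than 0.3. Without wild-type replicate 1, 2 or 3 there were 3 calls in all. The membrane-bound Mmp23 differed by -0.66 (adjusted p = 0.0087), and the sheddases Adam9 and Adam17 by -0.27 (adjusted p = 0.015) and -0.19 (adjusted p = 0.037). Adam8 and Adam28 were higher by 0.29 (adjusted p = 0.04) and 0.28 (adjusted p = 0.039). None of these 5 was called with the block (smallest adjusted p = 0.098). Leaving out 1 array ended the call of Adam17 for any of the 4 wild-type arrays, and those of Adam8 and Adam28 for 6 of the 8 arrays each (adjusted p up to 0.08, 0.11 and 0.1). For Adam8 these were all but Mmp7-null replicate 4 and wild-type replicate 4, and for Adam28 all but Mmp7-null replicate 1 and wild-type replicate 4. Dimmer probe sets of Adam17 gave -0.18 and, at a lower level, 0.08. Of 16 proteins that matrilysin cleaves or sheds, 2 had lower and 1 higher transcript (18.8%). The syndecan Sdc1 differed by -0.23 (adjusted p = 0.034; with the block -0.18, adjusted p = 0.4) and lost its call without Mmp7-null replicate 1 or 4 or wild-type replicate 1, 2 or 3 (adjusted p up to 0.079). Its 3 dimmer probe sets gave -0.11, -0.27 and -0.20. Igfbp5 differed by -0.38 (adjusted p = 0.0085; with the block -0.18, adjusted p = 0.39).

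Mmp7 lies on chromosome 9. Over the 52 measured genes nearest to Mmp7 in gene order, 22 before and 30 after it, 5 were called (9.62% beside 6.21% of all genes), 2 higher and 3 lower, with a median of -0.03. The inflammatory caspase Casp4 read 6.97, 7.32, 7.14 and 6.89 in Mmp7-null and 8.42, 8.50, 8.32 and 8.73 in wild-type cultures, a difference of -1.41 (SE 0.11, adjusted p = 1.5e-05). Its groups did not overlap, and it differed by -1.33 (adjusted p = 0.0064) with the block and by -1.37 (adjusted p = 3.6e-05) in uninjured cultures. Casp1 nearby differed by -0.39 (adjusted p = 0.033; with the block -0.27, adjusted p = 0.48), and 6 of the 8 arrays, all but Mmp7-null replicates 3 and 4, ended its call when left out (adjusted p up to 0.077). Cfap300, a dynein assembly gene 5 genes from Mmp7, was higher by 1.16 (adjusted p = 0.00041) in scratched and 1.16 (adjusted p = 0.00068) in uninjured cultures.

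Secretory, basal and squamous lists held calls in both directions. Of 34 goblet cell and mucus genes 4 were higher and 4 lower, of 26 club cell genes 2 and 4, of 25 basal cell genes 1 and 4, and of 42 genes of the cornified envelope 2 and 5. These were 23.5%, 23.1%, 20% and 16.7% of the lists, beside 6.21% of all genes. With the block 3, 3, 2 and 1 of the calls were kept. The 5 basal calls were 3 without Mmp7-null replicate 4, and the 7 cornified envelope calls were 4 without Mmp7-null replicate 4 or wild-type replicate 3. The calcium-activated chloride channel regulator genes Clca3a1 and Clca3a2 were higher. Clca3a1 read 7.24, 7.23, 7.08 and 7.29 against 5.87, 6.29, 5.58 and 6.22, a difference of 1.22 (SE 0.17, adjusted p = 0.00095), and Clca3a2 differed by 1.41 (adjusted p = 7.1e-05). The genes are close copies whose probes may share signal, and the dimmer probe set of Clca3a2 gave 0.23. Agr3, a relative of Agr2 found in ciliated cells, was higher by 0.70 (adjusted p = 6e-04) and the sialyltransferase St6gal1 by 1.17 (adjusted p = 0.0085; with the block 1.26, adjusted p = 0.12). The membrane mucin Muc20 was lower, at -0.81 (adjusted p = 0.0058; with the block -0.64, adjusted p = 0.21). Muc5b, the main secreted mucin here, read 9.27, 7.63, 8.30 and 8.57 against 9.43, 9.97, 9.64 and 10.07. Its groups did not overlap, but the Mmp7-null arrays were widely spread and the difference of -1.33 did not pass (SE 0.48, adjusted p = 0.13).

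The defining club marker Scgb1a1 and the defining basal markers Krt5 and Trp63 did not pass the test. Scgb1a1 differed by 0.21 (SE 0.19, adjusted p = 0.45) and the basal factor Trp63 by 0.23 (SE 0.09, adjusted p = 0.16). Krt5 overlapped between the genotypes. Other members of these lists were called. Besides Igfbp2 and Cav1, the basal keratin Krt14 was called higher (adjusted p = 0.049), and Aqp3 (adjusted p = 0.019) and Itga3 (adjusted p = 0.016) lower. Of the club list Cldn10 was called lower (adjusted p = 0.02). Krt14, Aqp3, Itga3 and Cldn10 were not called with the block. The club cell lipid-binding gene Sec14l3 was higher by 0.92 (adjusted p = 0.00035) and haptoglobin, Hp, by 0.86 (adjusted p = 0.0015; with the block 0.92, adjusted p = 0.05). Cyp2b10, a club cell cytochrome, read 10.15, 10.38, 10.38 and 10.37 against 10.92, 11.13, 11.04 and 11.19, a difference of -0.76 (SE 0.09, adjusted p = 0.00022), and was called with the block. The serpin Serpinb12 was higher by 1.45 (adjusted p = 0.00056; its dimmer probe set, near background, gave 0.24) and the cross-linking enzyme Tgm1 lower, at -0.60 (adjusted p = 0.0023; with the block -0.47, adjusted p = 0.089). Of 48 genes of xenobiotic metabolism 8 were lower and 2 higher (20.8% beside 6.21% of all genes). There were 6 calls without wild-type replicate 2, and 2 of the 10 were kept with the block. Among the lower genes were the aldehyde dehydrogenase Aldh3a1 (-0.54, adjusted p = 0.0083, and -0.60 with the block, adjusted p = 0.089) and the exporter Abcc3 (-0.63, adjusted p = 0.00011).

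Of 41 junction and polarity genes 6 were lower and 1 higher (17.1% beside 6.21% of all genes; 2 lower and none higher without the 3 arrays), with Cldn18 the largest; 3 calls were left without replicate 2 of either genotype or Mmp7-null replicate 1, and 4 without wild-type replicate 1. Of 28 Notch pathway genes 3 were higher and 2 lower (17.9%; 2 calls without wild-type replicate 2 or 3, 3 without wild-type replicate 1 or Mmp7-null replicate 3 or 4), the largest being the target Hey1 (0.73, adjusted p = 0.012). Of 21 targets of YAP and TAZ Dlc1 alone was called (-0.87, adjusted p = 0.0018). Of 36 genes of glycolysis and hypoxia 13.9% were called: 2 were higher, led by Ankrd37 (0.84, adjusted p = 0.01; with the block 1.03, adjusted p = 0.069), and 3 were lower. Of 18 endothelial genes the adhesion gene Esam was called as lower (adjusted p = 0.012, and 0.1 with the block). It read 2.90, 2.70, 3.02 and 2.97 against 4.37, 3.91, 3.23 and 3.98, with the Mmp7-null arrays at or near background, so the size of its difference is not given, and 14 of the 18 genes had a mean at background. Of 69 oxidative phosphorylation and 42 ribosomal protein genes 1 each was called. None of 24 genes of tuft, neuroendocrine and ionocyte cells was called in limma. Of these 24 genes 3 had an unadjusted p under 0.05, beside 4062 of all 18193 genes.

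Large differences also lay outside the cell type and pathway lists. The largest higher value of all was that of Sult1c1, a sulfotransferase, which read 6.51, 4.98, 3.8 and 5.98 in Mmp7-null and 2.61, 3.66, 3.16 and 3.75 in wild-type cultures. The Mmp7-null arrays were spread from 3.8 to 6.51, and the difference of 2.02 (SE 0.55, adjusted p = 0.045) lost its call when any array but Mmp7-null replicate 3 was left out (adjusted p up to 0.11). Sult1c2, of the same family, read 5.12, 4.55, 4.52 and 4.70 against 3.18, 3.52, 3.13 and 3.10, a difference of 1.49 (adjusted p = 0.0027). With the block they were at 2.34 (adjusted p = 0.18) and 1.55 (adjusted p = 0.073). Ddah1, which degrades inhibitors of nitric oxide synthesis, differed by 1.74 (adjusted p = 0.019; with the block 1.91, adjusted p = 0.17), a call lost without Mmp7-null replicate 2 or wild-type replicate 3 (adjusted p up to 0.06). The myosin light chain Myl4 read 8.67, 8.89, 8.35 and 8.73 against 6.74, 6.91, 7.07 and 7.34, a difference of 1.65 (SE 0.17, adjusted p = 0.00013), and was called with the block. So were Fam81a (1.60), 1700086L19Rik (1.47), Rptoros (1.43) and Erdr1 (1.41).

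Among the lower genes outside those lists, Ndnf, a secreted neurotrophic factor, read 3.60, 5.52, 5.23 and 5.81 against 7.22, 7.51, 7.31 and 7.10, a difference of -2.25 (SE 0.36, adjusted p = 0.0021; with the block -2.18, adjusted p = 0.084). The membrane glycoprotein Gpm6a was below background on all 4 Mmp7-null arrays, where it was at least 3.06-fold lower (adjusted p = 0.0013; a dimmer probe set gave -0.86; adjusted p = 0.065 with the block). The peroxisomal thiolase Acaa1b read 7.17, 7.45, 7.50 and 7.56 against 9.30, 9.25, 8.94 and 9.26, a difference of -1.76 (SE 0.18, adjusted p = 0.00013), and the lysine-degrading enzyme Aass differed by -1.68 (adjusted p = 0.0016). Both were called with the block, as were Prrg3 (-1.56) and the glucuronosyltransferase Ugt2b34 (-1.49). The ferric reductase Cybrd1 differed by -1.44 (adjusted p = 0.0022; with the block -1.30, adjusted p = 0.071). The integrin Itgb3 read 2.27, 2.48, 2.56 and 3.11 against 3.77, 3.94, 4.19 and 4.65 (adjusted p = 0.0062, and 0.2 with the block). It was above background on 1 of the 4 Mmp7-null arrays, so the size of its difference is not given.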

How the data were processed

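RNA from 16 cultures, 4 per genotype and state, was measured on Affymetrix mouse arrays, 1 array per culture. The authors deposited linear intensities that had been normalized with RMA, per the submitters' processing notes. RMA corrects background, forces all arrays to 1 distribution and summarises the probes of a set, which can hide a shift shared by most genes. The labels name an array of smaller design than the deposited table, which holds 45101 probe sets. Of these 64 are controls, 34945 had 1 gene symbol, 932 several and 9160 none. Only those with 1 symbol were named, and 9010 of the 18193 genes had several probe sets. Arrays give no read depth, and 4 per group limit the precision.

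Intensities were put on the log2 scale and tested with limma 3.58.1 (R 4.3.3) in a model with 4 group means over all 16 arrays (12 residual degrees of freedom), with moderated variances and Benjamini-Hochberg adjustment over 18193 genes. Background was the 95th percentile (2.97) of bacterial controls on arrays that lacked them. A bound on a fold sets the bright group against the higher of background and the dim group's own value on each array. In simulated data for the scratched comparison with 200 of 18193 genes changed, 64% of changes of 0.5, 94% of changes of 1, 100% of changes of 1.5 and 98% of changes of 2 (log2) were found, and 5.32% of calls were false. The simulation drew independent noise for each gene and held no control sets and no array set apart. Its share of false calls therefore does not cover such effects in the real arrays.

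Apart from those chosen after the values had been seen, the genes named came from a rule. It gave Mmp7, the 15 largest called differences each way without overlap, and 14 defining markers. It also gave every called metalloproteinase and listed chromosome 9 gene, and up to 6 called genes each way from each of 44 lists. The lists held 1491 genes, of which 1340 were measured. Not every gene that met the rule is described. Among those left out are Ankrd66 and Bbox1, of the 15 largest higher, and the mitosis gene Cdc25b. The members and lists were chosen with earlier results of these data known. Same-numbered replicates of the scratched groups did not deviate together (correlations -0.104 to 0.14) and were not paired. Alternatives covered the arrays fitted, replicate and control-set blocks, probe set summary, dim genes, variance model, array weights, scaling, the log offset (16) and arrays left out. Promoter windows are RefSeq's, on GRCm38.p6.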

Additional observations from a re-analysis of the deposited data

Results flagged for a closer look

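Combinations of a named gene and a scratched group, 268 in all, were checked for 1 array that stood apart from the other 3. Krt14, Aqp3, Itga3, Cldn10, Ankrd66, Bbox1 and Cdc25b were not among them. For 32 combinations the gap to the nearest other array, divided by the group's range, was above Dixon's 95% critical value. Chance gives such a gap in about 1 group in 20. Mmp7-null replicate 1 stood apart for Adam17 (0.977), Avpi1 (0.911), Cav1 (0.976), Ccnb2 (0.845), Col1a1 (0.973), Cyp2b10 (0.923) and Scnn1g (0.97). Mmp7-null replicate 2 stood apart for Hey1 (0.851), Muc5ac (0.859) and Sgo2a (0.846). Mmp7-null replicate 3 stood apart for Cmpk2 (0.925), Kcnj15 (0.845), Pecam1 (0.932) and Sftpb (0.869). Mmp7-null replicate 4 stood apart for Cfap221 (0.938), Igfbp5 (0.833) and Sftpd (0.854). Wild-type replicate 1 stood apart for Myb (0.852). Wild-type replicate 2 stood apart for Cep152 (0.837), Kcne2 (0.842), Sdc1 (0.847) and Sftpb (0.83). Wild-type replicate 3 stood apart for Acaa1b (0.869), Acta2 (0.837), Ccnb2 (0.86), Clca3a2 (0.848), Col1a1 (0.923), Mmp7 (0.849) and Pecam1 (0.842). Wild-type replicate 4 stood apart for Cfap221 (0.874), Erdr1 (0.865) and Muc20 (0.903). Of the array measures, the upper quartile of intensity of Mmp7-null replicate 1, 119.1, stood apart from its group (0.957), and so did the gap between the 3′ and 5′ ends of the actin control of wild-type replicate 4, 2.62 (0.844).

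The genotype difference after the scratch differed from that before it for 24 genes by limma's test of that difference (adjusted p under 0.05). On the log2 scale it was more positive after the scratch for Rasl11a (1.18), Med24 (1.04), Mex3b (0.91), Samd4 (0.88) and Srebf2 (0.67). It was more negative for Cd68 (-1.12), Agr2 (-1.10), Kif2c (-1.05), Kcnj15 (-1.04), Dbp (-0.95), Slpi (-0.94), Cdca3 (-0.89), Cep55 (-0.83), Fabp5 (-0.78) and Arrdc3 (-0.78). Smaller negative values were those of Slc5a3 (-0.70), Avpi1 (-0.68), Prss8 (-0.67), Sgo2a (-0.65), Sec23b (-0.57), Cks2 (-0.51), Sdhaf4 (-0.46), Kcnk1 (-0.43) and Hnrnpc (-0.30).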

How the results depend on the processing

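Genes called in scratched cultures numbered 1130 (599 higher, 531 lower) over all arrays. Fitting only the 8 scratched arrays gave 527 (328 higher, 199 lower), array weights 1745 (941 and 804), the bacterial control set as a block 252 (153 and 99) and the 3 Phe arrays alone 223 (82 and 141). The last rests on 1 wild-type array, assumed to vary like the other groups. Centring each array on its median gave 879 lower genes, and leaving out the 3 arrays set apart by signal gave 283. Leaving out 1 scratched array gave 809 to 1135 genes, 416 to 718 higher and 319 (without Mmp7-null replicate 1) to 505 lower. Uninjured calls numbered 872, and 57 with the control-set block, 42 in the Phe arrays, 1310 without the 3 arrays and 480 (without Mmp7-null uninjured replicate 1) to 925 with 1 array left out; without wild-type uninjured replicate 1 they were 534. The genotype difference between the states called 24 genes, against 15 with every probe set tested, 37 without the dimmest 40% of genes, 100 with array weights, 58 with centring, 49 with quantile normalization repeated, 15 with 16 added to each intensity, 50 without the 3 arrays and 8 to 28 with 1 array left out. With the replicate number as a block the counts were 1014 (537 higher, 477 lower) in scratched cultures, 807 in uninjured cultures and 14 for the difference between the states; these numbers do not pair the cultures. The causes of these shifts were not tested, beyond the smaller number of arrays where some were left out. Of 106 called genes named with a difference, 82 kept their call with the 8 arrays alone, 102 with the replicate block, 58 with the control-set block, 27 in the Phe arrays, 83 without the 3 arrays and 96 to 102 with 1 array left out. None of these 106 differences changed sign under the alternatives run. Some of those of named genes that were not called did, such as that of Cks2 (-0.029 in scratched cultures, and 0.022 without the 3 arrays). Another probe set above background was present for 39 of the 106 genes, and for 13 it was over 1.5 times smaller or, for Adam17, Sftpc and Srebf2, of opposite sign.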
